A study of Mus musculus with 82 samples.

Results

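The 70 replication-dependent histone genes of the mouse were taken as every row of the gene count tables whose symbol begins with Hist1h, Hist2h, Hist3h or Hist4, out of 55376 genes listed. They comprise 6 linker histone (H1) genes, 20 H2A, 19 H2B, 12 H3 and 13 H4 genes. The annotation gives 67 as protein coding and 3 as pseudogenes (Hist1h2aj, Hist1h2al and Hist3h2bb-ps). Of the 70, 56 lie on chromosome 13, 10 on chromosome 3, 3 on chromosome 11 and 1 (Hist4h4) on chromosome 6. The study asked how hematopoietic stem cells (HSCs) age, using bone marrow of C57BL/6J male mice. RNA was sequenced from HSCs, sorted as lineage-negative Sca-1+ c-kit+ CD34- Flk2- CD150+ cells, as 4 young libraries (age 3 to 4 months, pooled mice) and 8 old libraries (age 24 to 26 months, single mice). It was also sequenced from young common myeloid (CMP), granulocyte-monocyte (GMP) and megakaryocyte-erythroid (MEP) progenitors, with 2 libraries each. The other 12 libraries came from old HSCs that all carried a lentivirus, expressing either a scrambled control shRNA or 1 of 2 shRNAs (shRNA1, shRNA2) against the shorter Btaf1 variant, with 2 libraries for each virus and setting. In the culture setting GFP+ cells were sorted after 3.5 days in a polyvinyl alcohol medium. In the transplantation setting donor HSCs (CD48- CD150+ CD45.2+, GFP+) were recovered from lethally irradiated young female CD45.1 recipients. Each transplanted library pooled several recipients, per a figure legend of the study, whereas no source used here says that the 2 cultured libraries of a virus, or the 2 of a progenitor type, came from separate cultures or mice, so that p-values there measure a spread between libraries that may be technical. Each library held between 20475764 and 42737054 reads assigned to genes. Levels are CPM, the counts scaled to 1e+06 such reads. Btaf1, the targeted gene, stood at 139 CPM in cultured controls against 115 and 112 CPM under shRNA1 and shRNA2, and at 163 against 135 and 118 CPM after transplantation, and counts of a whole gene cannot separate its variants.

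Replication-dependent histones package newly copied DNA, and their genes are transcribed mainly in S phase. Their mRNAs are unusual in ending in a conserved stem-loop that binds SLBP, in place of a poly(A) tail, and most of these genes lack introns. Linker histones bind the DNA between nucleosomes, whereas H2A, H2B, H3 and H4 form the nucleosome core. In the genome sequence (GRCm38, annotation GENCODE M21), 60 of the 67 coding genes carried the stem-loop motif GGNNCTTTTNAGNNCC within 150 bases after the coding end on their own strand. Of 21871 other coding genes, 2 did (0.00914%), H2afx and H2bfm. Examples of each stem-loop form found are shown with the 16-base stem-loop in capitals, since it is the element by which these mRNAs differ from the polyadenylated mRNAs that most libraries capture.
Hist1h1b (H1, chr13:21779828-21779857, minus strand): ccaaaGGCTCTTTTCAGAGCCacctagaga
Hist1h2ae (H2A, chr13:23570659-23570688, minus strand): acaaaGGCTCTTTTCAGAGCCattcactta
Hist1h3f (H3, chr13:23544927-23544956, plus strand): aaaacGGCTCTTTTAAGAGCCacctccatt
Hist2h2ac (H2A, chr3:96220409-96220438, minus strand): aaaaaGGCTCTTTTTAGAGCCaccaaatct
Hist1h4d (H4, chr13:23581945-23581974, plus strand): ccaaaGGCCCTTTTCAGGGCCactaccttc
Hist1h4i (H4, chr13:22040957-22040986, minus strand): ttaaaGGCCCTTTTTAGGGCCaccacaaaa
Hist1h4j (H4, chr13:21735432-21735461, plus strand): ctaaaGGTCCTTTTCAGGACCaccacatct
The form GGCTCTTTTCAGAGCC was found in 38 genes and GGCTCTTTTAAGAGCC in 9, all of them H1, H2A, H2B or H3 genes, and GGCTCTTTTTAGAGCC in Hist2h2ac alone. Among the 12 H4 genes with a match, 8 had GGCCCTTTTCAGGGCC, 2 had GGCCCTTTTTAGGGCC and 2 had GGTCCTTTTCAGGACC, so no stem-loop form was shared between H4 genes and the other classes.

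Promoter sequence also differed between classes. RefSeq promoters (GRCm38.p6, from 250 bases before to 50 bases after the start) were matched for 61 of the 70 genes. The letters CCAAT, searched on both strands, were present in 52 of the 61 (85.2%) against 37.9% of 27025 gene promoters. They were in all 6 H1, all 17 H2A, all 16 H2B and all 10 H3 promoters, but in 3 of 12 H4 promoters. TATAAA was present in 35 of 61 (57.4%) against 14.2% of all promoters. AAACACA, the element long known from H1 promoters, was in 9 of 61 (14.8%) against 7.14% of all promoters, and in 5 of the 6 H1 promoters. It lay 105 to 115 bases before the start in those 5. In the 6 histone gene promoters that hold both AAACACA and TATAAA, on either strand, the 2 motifs shared letters in 0. The 5 H1 promoters that hold it are shown, with AAACACA in capitals, because it sets H1 promoters apart from most others and Hist1h1b recurs in the comparisons.
Hist1h1b (chr13:21780725-21780754, minus strand): ttggggactaacAAACACAatttgggattg
Hist1h1c (chr13:23738683-23738712, plus strand): gtgaagtgtaacAAACACAagttgggcgca
Hist1h1d (chr13:23554898-23554927, plus strand): ttgaggggcaacAAACACAgccacaaggca
Hist1h1e (chr13:23622656-23622685, minus strand): ttgaggtgtaacAAACACAactccgcatct
Hist1h1t (chr13:23695685-23695714, plus strand): tggggggaaaagAAACACAaatgcccctcc
A match of letters is a description and not a tested binding site. Many core histone genes are arranged head to head, and 15 such pairs with 173 to 660 bases between their starts were found, most of them an H2A gene beside an H2B gene.

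The histone genes together contributed few reads, and the amount differed between experiments. Their summed level was 130.6 ± 6.9 CPM (SD, n = 4) in young HSCs and 106.8 ± 12.7 CPM (n = 8) in old HSCs. It was 165.8 ± 2.6 CPM (n = 2) in transplanted and 234.6 ± 13.1 CPM (n = 2) in cultured control cells, and 251.2 ± 5.3, 251.1 ± 20.5 and 290.0 ± 5.0 CPM (n = 2 each) in CMP, GMP and MEP. Young HSCs ranged from 126 to 141 CPM and old HSCs from 90.6 to 130 CPM, so those groups overlapped, and both lay below every shRNA and progenitor library. In young HSCs the H1 genes gave 36.7 CPM, H2A 21.7, H2B 38.9, H3 2.54 and H4 30.8 CPM. In MEP the same classes gave 56.3, 111, 46.5, 11.4 and 65.1 CPM, so that H2A was the largest class there and H2B in young HSCs. In old HSCs H4 (29.8 CPM) and H2B (29.0 CPM) were close. Between 47 and 65 of the 70 genes had a read in a given library, and Hist2h3c1 and Hist1h2aa had none in any of the 30. Fewer transcribing cells and less RNA per cell cannot be told apart in such bulk libraries.

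**Figure D1:**
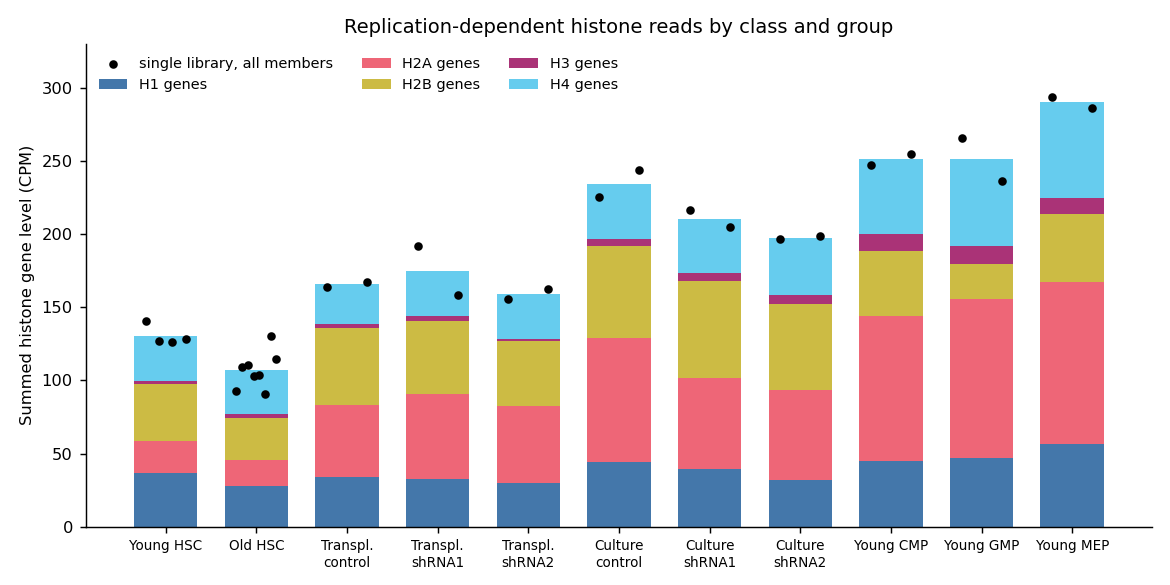
Summed level (CPM, axis from 0) of the 70 histone genes in each of 11 groups; stacked bars are group means by histone class and each black point is the sum in 1 library. The young and old HSC sums lie lowest, between 90.6 and 141 CPM, and the MEP sums highest.

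The reads were concentrated in a few genes. In both young and old HSCs 12 members held 90% of the histone reads, whereas 14 to 18 did in the shRNA groups and 21 to 24 in the progenitors. Per kilobase of annotated exon, the level over the 12 HSC libraries was highest for Hist1h4d (21.5 CPM per kilobase), which encodes H4. It was followed by the H2B gene Hist1h2bc (11.9), the linker histone gene Hist1h1c (11.6), the H2A gene Hist1h2ae (6.86), Hist3h2a (5.03), Hist1h1e (4.65), Hist1h4i (3.70) and Hist2h2be (3.50 CPM per kilobase). In CPM the leading gene was Hist1h4d in HSCs, at 23.7 in young and 24.8 in old cells, and Hist1h2ae in every other group, at 28.7 to 64.2 CPM. Of the 70 genes, 41 share over 50% of their 31-base words with another place in the genome and 5 (among them Hist1h2ao and Hist1h2ap) share all of them, so their counts depend on how reads with several matches were assigned, which the sources used here do not give. The counts of Hist1h2be and Hist1h1e, which overlap on 1 strand, and of Hist3h2a, which overlaps Trim17, are uncertain in the same way. Genes on the other strand overlap many H2A genes, among them Hist1h2ae, Hist1h2ao and Hist1h2ap. Those counts are uncertain too if strand was ignored in counting, which the sources used here do not say.

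Most histone reads in HSCs came from genes whose annotated exons run well past the stem-loop, that is, whose annotated transcripts are longer than the processed histone mRNA. Of the 60 genes with a stem-loop, 23 are annotated for more than 100 bases beyond it, and these include 10 of the 12 most counted in HSCs. They held 93.7% ± 1.4 of the reads of all 60 in young HSCs (range 92.1 to 95.3%) and 94.8% ± 0.6 in old HSCs. The share was 88.3% in transplanted and 82.5% in cultured control cells, 71.8% in CMP, 67.2% in GMP and 69.0% in MEP. The 37 genes that end at or within 100 bases of the stem-loop summed to 7.57 CPM in young HSCs, 5.04 CPM in old HSCs, 38.1 CPM in cultured controls and 84.6 CPM in MEP. The distance of 100 bases was chosen after seeing the data, and at 300 bases the share was 86.8% in young HSCs, 54.0% in cultured controls and 45.7, 40.1 and 46.0% in CMP, GMP and MEP. The shares are of reads and are not scaled to exon length. Exon length and repeated sequence differ between these genes, and their part in the shares was not tested. The labels name a SMARTer total RNA kit for HSC and progenitor libraries and a SMART-seq kit for the shRNA libraries, but call the RNA total for HSCs and polyA for progenitors, while the methods of the study name SMART-Seq kits for young, old and transplanted HSCs. Kits primed on poly(A) and kits for total RNA differ in whether they capture mRNAs that end at the stem-loop, and the part of the kit in these differences was not tested.

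**Figure D2:**
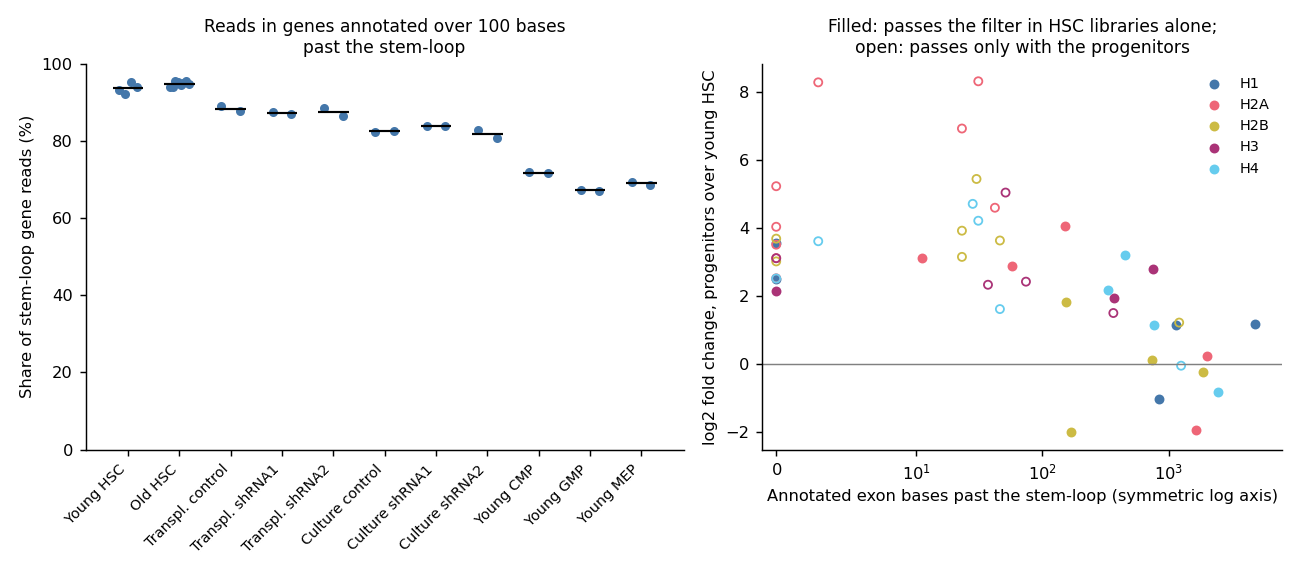
Left, share (%) of the reads of the 60 stem-loop histone genes that falls in the 23 annotated for over 100 bases past the stem-loop, with a point for each library and a line at each group mean; right, log2 fold change of progenitors over young HSCs against annotated exon bases past the stem-loop, with a point for each tested gene coloured by class, filled where the gene passes the filter in HSC libraries alone and open where it passes only with the progenitors. HSC libraries lie above 92% and progenitor libraries below 72%, and the 4 genes called lower in progenitors all lie past 100 bases.

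Between old and young HSCs few histone genes differed. Hist1h1b, a linker histone gene of dividing cells, fell, and the H2B gene Hist3h2ba passed the same test more narrowly; no histone gene rose. A call needed more than a 1.5-fold difference with adjusted p under 0.05 (edgeR quasi-likelihood test with Benjamini-Hochberg adjustment over all 21522 genes tested). Of the 70 genes 22 had enough reads to be tested and 48 did not. Of the 22, 0 were called higher, against 4.69% of all genes tested, and 2 lower, against 2.83%. The median log2 fold change of the 22 was -0.31 against -0.0073 over all genes, and 6 of the 22 lay above 0.

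Hist1h1b was counted at 3.18, 2.69, 1.61 and 2.16 CPM in the 4 young libraries and at 0.361 (lowest), 0.915 (median) and 1.24 CPM (highest) in the 8 old libraries. Every old library lay below every young one. The log2 fold change was -1.40 (SE 0.28, edgeR adjusted p = 0.000496), and the call was kept without any single library. Hist1h1c, the most abundant linker histone gene in HSCs, stood at 26.7, 22.3, 19.9 and 23.4 CPM in young cells and at 12.3, 15.2 and 19.2 CPM (lowest, median, highest) in old cells. Those groups did not overlap either, but the log2 fold change of -0.54 (SE 0.10, edgeR adjusted p = 0.00023) was short of 1.5-fold. The other linker histone genes that could be tested were not called: Hist1h1a stood at 0.356 ± 0.189 CPM in old against 0.486 ± 0.097 CPM in young cells, Hist1h1d at 1.91 ± 0.85 against 2.10 ± 0.57 CPM and Hist1h1e at 9.19 ± 2.02 against 8.55 ± 1.03 CPM. Hist1h1t, the linker histone gene of the testis, had 12 reads in all in the 12 libraries.

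Among core histone genes, Hist3h2ba stood at 2.55, 2.88, 2.62 and 2.28 CPM in young cells and at 1.22, 1.33 and 2.67 CPM (lowest, median, highest) in old cells, with 1 old library inside the young range. Its log2 fold change was -0.65 (SE 0.21, edgeR adjusted p = 0.0311). The call was lost on leaving out young library 1, 2 or 3 or old library 1, 4, 5, 6 or 8, with adjusted p between 0.0503 and 0.0893. Hist2h2be, an H2B gene, stood at 12.1, 10.1, 11.9 and 10.7 CPM in young against 7.22, 8.07 and 9.49 CPM in old cells, without overlap, at a log2 fold change of -0.41 (SE 0.10, edgeR adjusted p = 0.00297), also short of 1.5-fold. In all, 3 of the 22 tested genes had every old library below every young one, against 8.02% of all genes, and 0 had the reverse, against 7.07%. The H4 gene Hist1h4d was at 23.7 ± 1.0 CPM in young and 24.8 ± 3.4 CPM in old cells, and the H2A gene Hist1h2ae at 5.11 ± 0.36 and 4.69 ± 1.16 CPM, so both differed by less than the spread between libraries. The count of 2 lower genes became 1 on leaving out young library 2 or old library 1, 5, 6 or 8, as Hist3h2ba was lost.

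**Figure D3:**
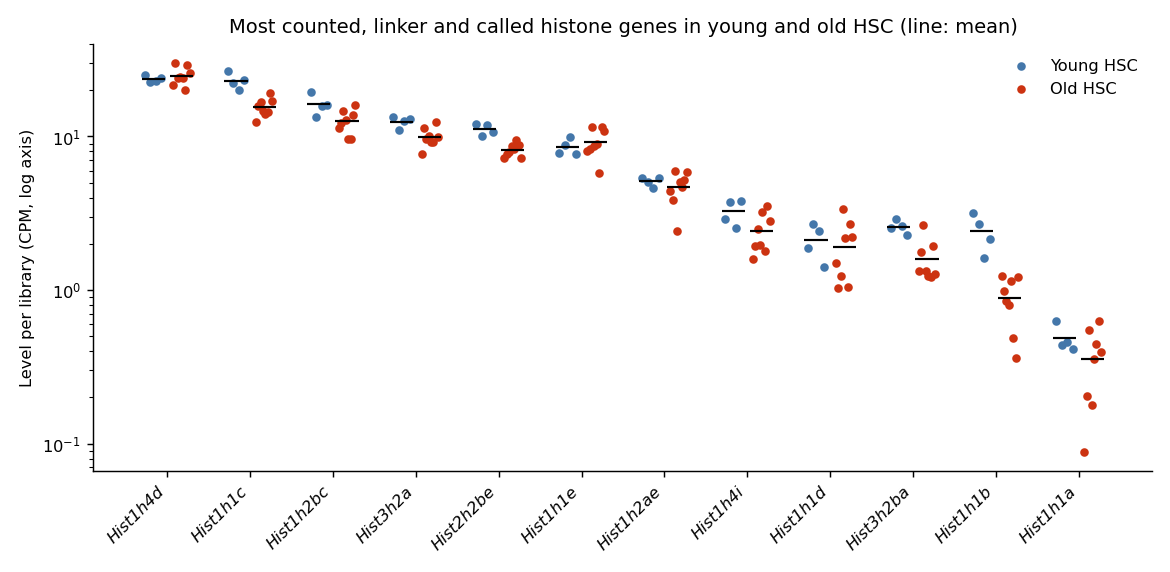
Level (CPM, log axis) of 12 histone genes in 4 young (blue) and 8 old (red) HSC libraries, ordered by mean level, with a point for each library and a line at the mean. The old points lie wholly below the young points for Hist1h1c, Hist2h2be and Hist1h1b, and overlap them for Hist1h4d and Hist1h2ae.

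Few genes that process or deposit histones were called between old and young HSCs. Of 17 genes for histone mRNA transcription and 3′ processing, 0 were called in either direction (median log2 fold change 0.0017), and Slbp, whose product binds the stem-loop, stood at 87.1 CPM in old against 101 CPM in young cells (log2 fold change -0.18, edgeR adjusted p = 0.0138). Of 15 histone chaperones and acetyltransferase subunits 0 were called, though their summed level was 2601 to 2676 CPM in young and 2382 to 2566 CPM in old libraries, without overlap, and of 11 replication-independent variants 1 rose (H2afy2, a macroH2A gene, log2 fold change 0.92) and 0 fell. Of 24 S-phase genes 1 fell (E2f1) and of 10 G2 and mitosis genes 1 fell (Cdk1), with medians of -0.24 and -0.20. The summed S-phase level was 2045 to 2204 CPM in young and 1556 to 1836 CPM in old libraries, so that every old library lay below every young one, as for Hist1h1b, and the part of S phase in the histone values was not tested. B cell markers moved with age in the same libraries: 6 of 9 fell, and their summed level was 87.6 to 157 CPM in young against 37.7 to 45.7 CPM in old libraries, with none of the 9 at 0 in either group. With that sum added to the fit, a setting added after seeing the data, 0 histone genes were called lower, Hist1h1b had a log2 fold change of -2.58 (edgeR adjusted p = 0.192), and 88 genes in place of 608 were called lower over the whole table. Because the sum did not overlap between the ages, this fit can hardly tell it apart from age, and nothing follows from the lost calls. Among the other marker lists with age, 1 of 10 HSC markers rose (Slamf1), 0 of 3 plasma cell markers were called, 1 of 3 T cell markers fell, 1 of 7 myeloid markers rose and 1 fell, 2 of 7 erythroid markers rose and 3 fell, 2 of 4 megakaryocyte markers rose, and 1 of 9 dissociation stress genes rose and 1 fell. Several of their sums separated the ages without overlap. Erythroid markers summed to 161 to 220 CPM in young and 33.9 to 120 CPM in old libraries, and T cell markers to 14.4 to 16.1 against 10.2 to 13.5 CPM. Megakaryocyte markers summed to 488 to 508 CPM in young and 856 to 1185 CPM in old libraries, and myeloid markers to 147 to 301 against 312 to 416 CPM. The median log2 fold change of the 7 tested myeloid markers was -1.77, so that the sum and the median of that list went opposite ways. No gene of these 4 lists was at 0 in either age, and the part of these lists in the histone values was not tested.

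Chromatin at the starts of the histone genes was compared between young and old HSCs. Accessibility was measured by ATAC-seq in 4 young and 4 old HSC libraries, as counts over consensus regions. A region was assigned to a gene where it overlapped the 500 bases on either side of the start. There were 40 regions at 51 of the 70 genes. At more than a 1.5-fold difference with edgeR adjusted p under 0.01, 0 were called more accessible in old cells, against 10.1% of 89245 regions, and 0 less, against 2.9%. The log2 fold changes ran from -0.56 to 0.05 with a median of -0.11, against -0.01 over all regions, and 6 of the 40 were above 0. All values over the 89245 regions include regions away from gene starts. The paper places most of its differential regions far from gene starts and few close to them. No reference over regions at gene starts alone was computed. Whether the histone genes differ here from other gene starts was thus not tested. The region at Hist3h2ba was at 18.5 ± 0.9 CPM when young and 13.3 ± 1.6 CPM when old (n = 4 each), a log2 fold change of -0.48 (SE 0.09, edgeR adjusted p = 1.2e-05), with young libraries from 17.6 to 19.6 and old libraries from 10.9 to 14.2 CPM. The region shared by Hist3h2a and Hist3h2bb-ps went from 32.6 ± 0.4 to 24.7 ± 1.6 CPM (log2 fold change -0.41, edgeR adjusted p = 4.13e-07) and that at Hist1h1c from 37.9 ± 1.7 to 32.3 ± 1.5 CPM (-0.24, edgeR adjusted p = 0.000849). These groups did not overlap, though every difference was under 1.5-fold. At the head-to-head pair of Hist1h2an with Hist1h2bp on chromosome 13 (63.8 ± 6.3 and 61.6 ± 2.7 CPM), young and old libraries overlapped. Without a fold threshold, 13 of the 40 regions had an edgeR adjusted p below 0.05. Hist1h1b had no region within 500 bases of its start.

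Acetylation of histone H3 at lysine 27 (H3K27ac), a mark of active promoters and enhancers, was lower at 3 histone gene peaks in old HSCs. The values are deposited signals after scaling to equal read numbers, and with 2 young and 2 old libraries no test was made. A peak was counted where the ratio of group means passed 1.5 and each old library differed from each young one by at least 1.2. Of 25 peaks at 39 genes 0 were higher in old cells, against 9.11% of 39557 peaks, and 3 lower, against 2.27%. All values over the 39557 peaks include peaks away from gene starts. There the paper reports a modest rise of H3K27ac with age, and at promoters no change. No reference over promoter peaks alone was computed. The peak nearest the start of Hist1h1b (chr13:21778678-21780135, mm10), which lies 490 bases from it, over the 3′ end of the gene and mostly beyond that end, had signals of 5.09 and 4.76 in young and 2.53 and 2.58 in old cells, a ratio of 0.519. The peak between Hist1h2an and Hist1h2bp (chr13:21786656-21787977) had 3.15 and 3.17 against 1.33 and 1.79, a ratio of 0.494. The peak at Hist3h2ba (chr11:58948245-58948929) had 1.75 and 1.79 against 1.42 and 0.767, a ratio of 0.619. Both genes called lower in RNA, Hist1h1b and Hist3h2ba, were thus among the 4 genes at these peaks. The ratio was below 1 at 22 of the 25 peaks, with a median of 0.831 against 1.04 over all peaks, and both old libraries lay below both young ones at 13 of 25, against 17.7% of all peaks. At the peak of Hist1h4d, the most counted gene, the order was reversed, with 3.69 and 4.09 in young and 4.91 and 4.37 in old cells. The count of 3 became 5 on leaving out young library 2 or old library 1. In young HSCs the promoter mark H3K4me3 covered 51 of the genes in 35 peaks with a median signal of 11.5, against 5.37 over all 33199 peaks, at gene starts or elsewhere. No old H3K4me3 library was analysed here.

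**Figure D4:**
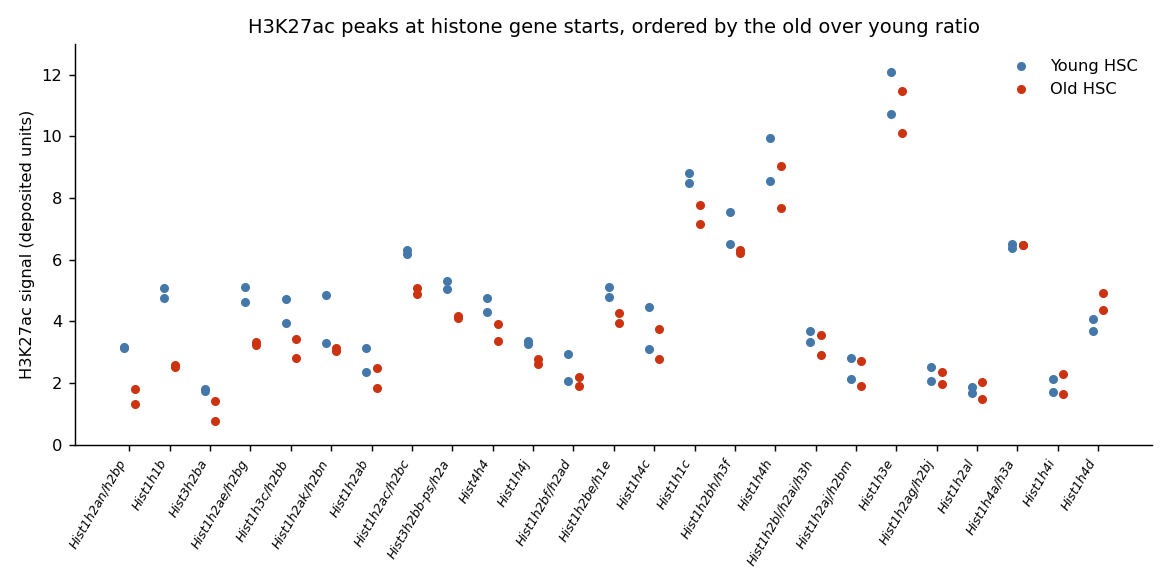
H3K27ac signal (deposited units) at the 25 peaks within 500 bases of a histone gene start, with 2 young (blue) and 2 old (red) libraries each, ordered from the lowest to the highest ratio of old to young means. Red points lie below blue ones at the left, with ratios down to 0.494, and above them at the right, at Hist1h4d.

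In cultured old HSCs, levels of Hist1h2ae and of 2 of the 5 tested linker histone genes were lower with shRNAs against the Btaf1 variant. Hist1h1c, the most abundant linker histone gene, was at 14.9 ± 1.1 CPM in the controls and at a log2 fold change of -0.0052 (SE 0.14), and Hist1h1a and Hist1h1e were not called. Both shRNAs (4 libraries) were set against the control shRNA (2 libraries), and here a call needed more than a 1.5-fold difference with unadjusted p under 0.05 (edgeR quasi-likelihood test). Of 49 genes tested 5 fell, against 0.972% of all genes, and 1 rose, against 2.45%. Hist1h2ae, the most counted H2A gene here, was at 55.2 and 59.1 CPM in the controls, 42.8 and 36.2 under shRNA1 and 34.8 and 34.9 under shRNA2. Both hairpins lay below both controls, at a log2 fold change of -0.64 (SE 0.08, edgeR adjusted p = 0.000421). Hist1h1b was at 10.3 and 9.28 CPM in the controls, 6.22 and 6.15 under shRNA1 and 5.10 and 6.06 under shRNA2 (log2 fold change -0.76, SE 0.13, edgeR adjusted p = 0.00484). Hist1h1d, another linker histone gene, was at 4.84 and 4.64 CPM in the controls, 3.23 and 3.37 under shRNA1 and 2.21 and 2.17 under shRNA2 (log2 fold change -0.81, SE 0.21, edgeR adjusted p = 0.0463). In these 3 genes the groups did not overlap, and they were the 3 that also passed at an adjusted p below 0.05 with the same fold, against 0.324% of all genes; 0 rose by that rule, against 0.582%. In all, 10 of the 49 genes had every shRNA library below both controls, against 10.8% of all genes, and 1 had the reverse, against 14.6%. With shRNA1 alone Hist1h2ae and Hist1h1d were at log2 fold changes of -0.56 and -0.55, short of 1.5-fold.

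The other 3 calls in culture rested on few reads. Hist1h3g fell (0.676 to 0.322 CPM, log2 fold change -1.07) and so did the H2B gene Hist1h2bg (1.42 to 0.841 CPM, -0.77), neither at an edgeR adjusted p below 0.05 (0.325 and 0.279). Hist1h3f was higher (0.0502 to 0.266 CPM, log2 fold change 2.33, edgeR adjusted p = 0.252), from 4 reads in the controls, and its groups overlapped. The count of 5 lower genes became 3 on leaving out control library 2, the second shRNA1 library or either shRNA2 library, and the count of 1 higher became 0 without control library 1, the first shRNA1 library or the second shRNA2 library and 2 without control library 2. No gene of the histone processing, chaperone, variant, S-phase or G2 and mitosis lists was called in this comparison, with median log2 fold changes of -0.032, -0.056, -0.044, -0.019 and -0.22. Some summed levels nevertheless did not overlap between control and shRNA libraries. Histone mRNA processing genes summed to 2028 to 2075 CPM in controls and 1981 to 2015 CPM with the shRNAs, and the replication-independent variants to 4727 to 4776 against 4395 to 4559 CPM. G2 and mitosis genes summed to 2177 to 2218 CPM in controls and 1846 to 1973 CPM with the shRNAs, HSC markers to 2025 to 2062 against 2168 to 2264 CPM, myeloid markers to 172 to 180 against 201 to 254 CPM, and erythroid markers to 114 to 116 against 73.1 to 101 CPM. The sums of plasma cell markers (13.24 to 13.27 against 8.03 to 12.4 CPM) and T cell markers (18.60 to 18.64 against 13.3 to 16.4 CPM) were also lower with the shRNAs. No gene of these lists was called, and their part in the histone values was not tested.

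After transplantation the same contrast called 1 of 35 histone genes, the pseudogene Hist1h2aj, as higher (0.320 ± 0.096 against 0.0399 ± 0.056 CPM, log2 fold change 2.95), against 1.43% of all genes, and 0 as lower, against 0.811%. It had 3 reads in the controls and 50 in the shRNA libraries, a ratio of 8.45 with an exact 95% counting interval of 2.73 to 42.4, and its edgeR adjusted p was 0.852. The higher count became 0 without control library 1, and the lower count became 1 without the first shRNA1 library. Every shRNA library lay above both controls for 3 of the 35 genes, against 8.24% of all genes, and below them for 4, against 6.45%. At an adjusted p below 0.05 edgeR called 0 of all 20350 genes, where 290 were higher and 165 lower at an unadjusted p below 0.05 and the same fold. Hist1h2ae was at 26.8 and 30.6 CPM in transplanted controls, 40.2 and 33.3 under shRNA1 and 31.5 and 32.4 under shRNA2, so all 4 shRNA libraries lay above both controls (log2 fold change 0.25, SE 0.12, edgeR adjusted p = 0.881). The difference between the 2 settings in the shRNA response of Hist1h2ae, tested as an interaction, was -0.89 (SE 0.13, edgeR adjusted p = 0.00761), the only 1 of 50 histone genes to pass, where 0.9% of all genes did. For Hist1h1b the interaction was -0.60 (SE 0.30, edgeR adjusted p = 0.477) and for Hist1h1d -0.55 (SE 0.34, adjusted p = 0.607), so a difference between settings was not shown for them. Among the summed levels of the other lists, 3 did not overlap between transplanted control and shRNA libraries. HSC markers summed to 3577 and 3668 CPM in controls and 3253 to 3491 CPM with the shRNAs, dissociation stress genes to 314 and 356 against 239 to 293 CPM, and replication-independent variants to 3748 and 3807 against 3862 to 4298 CPM. The myeloid sums (198 and 358 CPM in controls, 241 to 758 with the shRNAs) and the erythroid sums (28.5 and 55.2 against 28.3 to 106 CPM) overlapped, with median log2 fold changes of 1.11 over 8 and 1.04 over 7 markers. In these 5 lists 1 gene was called, a dissociation stress gene that was lower, and their part in the histone values was not tested.

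Control cells in culture carried more histone RNA than control cells recovered from recipients. Of 50 genes tested 16 were higher in culture, against 11.4% of all genes, and 1 lower, against 13.9% (edgeR adjusted p below 0.05 and fold above 1.5). Of the 35 genes that pass the filter in transplanted libraries as well, 14 were higher and 1 lower. Both culture libraries lay above both transplanted ones for 29 of the 50, against 27.9% of all genes, and below them for 6, against 46%. These 50 include 15 genes that pass the filter only in this fit, whose direction can follow from it. By class, within those 35, 9 of 13 H2A genes, 2 of 5 H1, 1 of 3 H3, 1 of 6 H2B and 1 of 8 H4 genes were higher. Hist1h2ae was at 57.1 ± 2.8 against 28.7 ± 2.6 CPM (log2 fold change 1.13, SE 0.11, edgeR adjusted p = 1.8e-06). Hist1h1b was at 9.81 ± 0.75 against 4.32 ± 0.54 CPM (1.32, SE 0.24, adjusted p = 0.000589), and Hist1h4d at 29.0 ± 0.4 against 19.0 ± 0.1 CPM (0.75, SE 0.12, adjusted p = 0.000146). Several called genes were scarce. Hist1h2ad was at 1.01 against 0.240 CPM and Hist1h2bj at 0.949 against 0.167 CPM (19 and 13 reads after transplantation). Hist1h2aj had 28 against 3 reads, a ratio of 9.30 with an exact 95% counting interval of 2.87 to 47.8. Hist1h3i (50 against 4 reads) and Hist1h3g (54 against 7 reads) passed the filter only with the culture libraries, so that their direction follows from it. The 1 gene that was lower in culture was Hist3h2a (4.21 ± 0.16 against 9.21 ± 1.01 CPM, edgeR adjusted p = 0.000916). Without culture control library 2 the higher count was 10. S-phase genes were higher in 21 of 24 cases and G2 and mitosis genes in 10 of 10, and 6 of 10 HSC markers were lower. Myeloid markers summed to 172 to 180 CPM in culture and to 198 to 358 CPM after transplantation, with 4 of 8 at 0 in culture and 0 called. Megakaryocyte markers summed to 1252 to 1288 CPM in culture against 429 to 610 CPM after transplantation, with none at 0 and 2 of 4 called higher. Erythroid markers summed to 114 to 116 against 28.5 to 55.2 CPM, with 2 of 7 at 0 in culture, 2 called higher and 1 lower. B cell markers summed to 17.4 to 18.7 CPM in culture against 30.7 to 33.1 CPM after transplantation, with 3 of 6 tested called lower. Plasma cell (13.24 to 13.27 against 5.74 to 8.33 CPM) and T cell sums (18.60 to 18.64 against 11.2 to 13.7 CPM) were higher in culture. The part of these lists in the histone values was not tested. Slbp rose by 0.69 and H1f0, the replication-independent linker histone gene, by 1.38 on the log2 scale. Culture, the sort and the RNA preparation cannot be told apart in this comparison.

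Between young progenitors and young HSCs most histone genes measured in both were higher in progenitors, and 4 were lower. Of 53 genes tested 44 were higher, against 21.9% of all genes, and 4 lower, against 52.1% (edgeR adjusted p below 0.05 and fold above 1.5). Genes that pass a filter on low reads only through the group where they are high tend to differ by that alone. Of the 53, 31 did not pass that filter in the HSC libraries alone, and 30 of these 31 were higher. Of the 22 that passed it there, 14 were higher and 4 lower, with a median log2 fold change of 1.496. The median of all genes was -0.85, so that levels are relative to a shifted whole, and that of the 53 was 3.02. Over the 53, every progenitor library lay above every HSC library for 37, against 14.6% of all genes, and below for 4, against 53.1%. The H2A gene Hist1h2ae was at 5.40, 5.08, 4.60 and 5.35 CPM in young HSCs, 59.8 and 59.9 in CMP, 70.1 and 58.3 in GMP and 63.4 and 59.2 CPM in MEP (log2 fold change 4.05, SE 0.08, edgeR adjusted p = 1.01e-21). Hist1h1b was at 1.61 to 3.18 CPM in young HSCs, 16.5 and 14.6 in CMP, 23.5 and 20.4 in GMP and 25.7 and 24.8 CPM in MEP (3.55, SE 0.14, adjusted p = 3.42e-16). All progenitor libraries lay above all HSC libraries in both genes.

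Some genes with hardly a read in HSC libraries entered the test only because they were counted in progenitors, so that their values describe the libraries and cannot serve as support. Hist1h2ao had 3 reads in the 4 young HSC libraries and 1900 in the 6 progenitor libraries, a ratio of 270 with an exact 95% counting interval of 92.2 to 1310. Hist1h2ap had 3 and 1862 reads, a ratio of 264 (90.4 to 1284), and Hist1h2bk, an H2B gene, 2 and 197 reads, a ratio of 42.0 (11.5 to 349). These intervals cover counting error only. The other direction was taken by 4 genes, and all 4 are annotated for more than 100 bases past their stem-loop: Hist3h2ba (0.742 against 2.58 CPM), Hist3h2a (2.43 against 12.5 CPM, log2 fold change -1.94), Hist1h1c (8.95 against 23.1 CPM, -1.02) and Hist4h4 (0.776 against 1.88 CPM, -0.83). Of the 22 genes that pass the filter in HSC libraries, the 16 that run past 100 bases included 9 higher and 4 lower, and the 5 that end within 100 bases were all higher; the other genes that end there passed only with the progenitors, so that their direction follows from the filter. S-phase genes were higher in 24 of 24 cases, G2 and mitosis genes in 10 of 10, chaperones in 14 of 15 and histone mRNA processing genes in 11 of 17, with Slbp at 373 against 101 CPM, and 10 of 10 HSC markers were lower. Of the other marker lists, 5 of 8 myeloid markers were higher and 0 lower, 3 of 7 erythroid markers were higher and 1 lower, and 4 of 4 megakaryocyte and 6 of 9 B cell markers were lower. So were 5 of 5 T cell markers, 4 of 5 plasma cell markers and 5 of 9 dissociation stress genes. Of 11 replication-independent variants 7 were higher and 3 lower. The part of these lists in the histone values was not tested. Cell type and sequencing experiment cannot be told apart in these values.

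**Figure D5:**
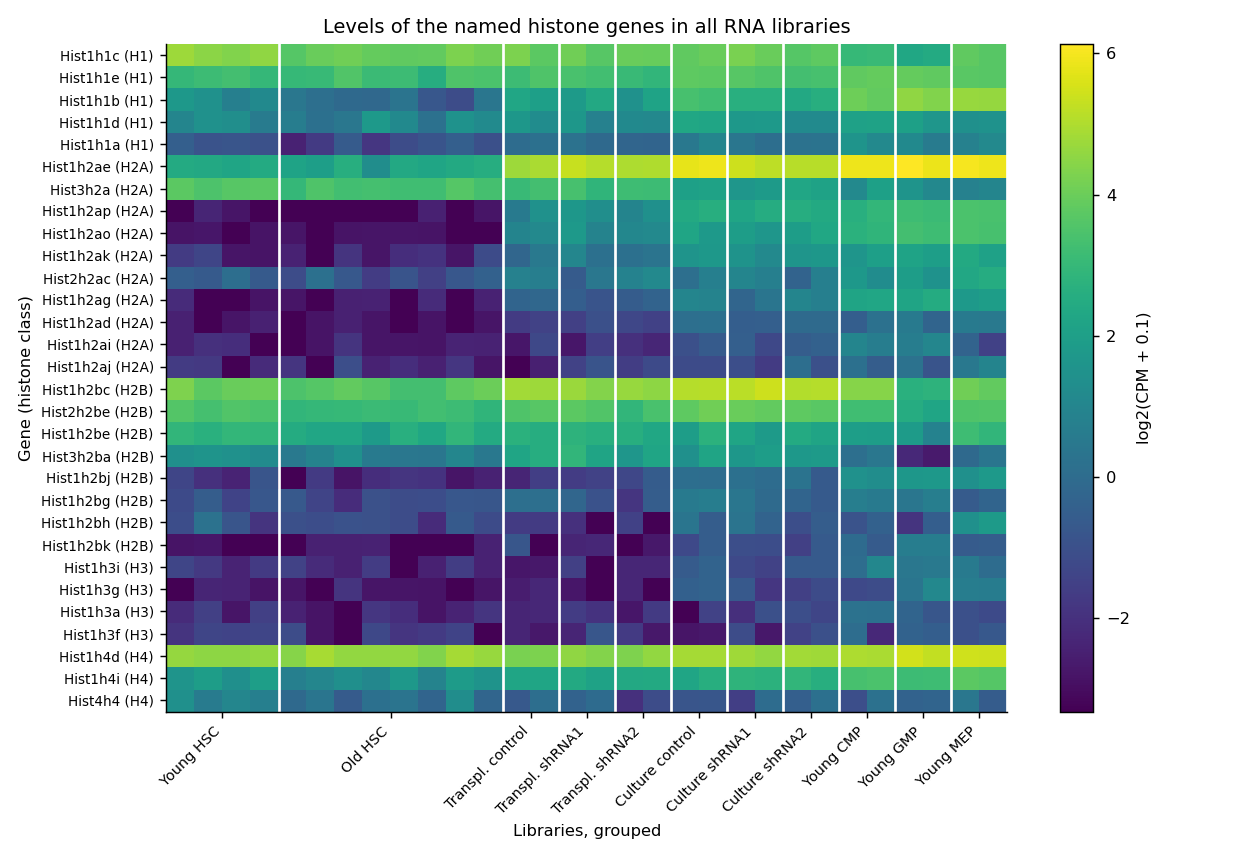
Level, as log2(CPM + 0.1), of 30 named histone genes (rows, by class) in all 30 RNA libraries (columns, by group, white lines between groups); yellow is high and dark blue is low. Hist1h2ae, Hist1h1b, Hist1h2ao and Hist1h2ap are darker in young and old HSC than in the culture and progenitor groups, while Hist3h2a and Hist1h1c are brighter in young HSC than in progenitors.

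Within the progenitors, labelled as 1 batch, single histone genes differed in both directions, mostly at shares near or below those of all genes. Of the 53 genes tested in each pair, MEP exceeded CMP in 8 (17.5% of all genes) and fell below it in 3 (29.2%). GMP exceeded CMP in 6 (6.24%) and fell below it in 3 (10.5%), and MEP exceeded GMP in 7 (16.6%) and fell below it in 4 (27.2%). Libraries did not overlap for 16 genes higher and 16 lower in MEP than CMP (34.3% and 48.3% of all genes), 9 and 11 in GMP against CMP (18.1% and 51.5%) and 16 and 18 in MEP against GMP (43.2% and 38.3%). The linker histone gene Hist1h1b was higher in MEP and GMP than in CMP, by log2 fold changes of 0.82 (SE 0.12, edgeR adjusted p = 5.14e-05) and 0.72 (SE 0.12, adjusted p = 0.000509). Hist1h1c was lowest in GMP, at 4.84 and 5.43 CPM against 8.05 and 8.41 in CMP and 14.2 and 12.8 in MEP, and its rise from GMP to MEP was 1.29 (SE 0.16, edgeR adjusted p = 1.13e-05).

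All 3 genes lower in GMP than in CMP were H2B genes. Hist1h2bc, the most counted H2B gene in HSCs, was at 21.2 and 21.3 CPM in CMP, 6.28 and 6.75 in GMP and 17.1 and 14.3 CPM in MEP. GMP lay below both other groups (log2 fold change from CMP -1.49, SE 0.15, edgeR adjusted p = 5.1e-06). Hist2h2be was also lowest in GMP, at 5.69 and 4.67 CPM, but higher in MEP (11.6 and 11.7 CPM) than in CMP (9.26 and 9.19 CPM). Hist3h2ba was at 0.986 and 1.26 CPM in CMP, 0.113 and 0.0603 in GMP and 0.845 and 1.19 CPM in MEP (GMP against CMP -3.42, SE 0.61, edgeR adjusted p = 0.000758). The summed H2B level was 24.2 ± 1.5 CPM in GMP, against 44.3 ± 0.7 in CMP and 46.5 ± 0.8 in MEP (n = 2 each), while the H2A sums were 109, 99.2 and 111 CPM. Most of the lower H2B sum lay in Hist1h2bc and Hist2h2be, and the H2B gene Hist1h2bk was higher in GMP than in CMP (1.51 against 0.719 CPM, log2 fold change 1.29). Among progenitors Hist1h2bh was highest in MEP, at 2.59 and 3.42 CPM against 0.438 and 0.673 in CMP and 0.169 and 0.603 in GMP. Hist1h2ai went the other way, at 0.704 and 0.255 CPM in MEP against 1.89 and 1.51 in CMP and 1.49 and 1.93 in GMP, with a log2 fold change from CMP of -1.71 (SE 0.46, edgeR adjusted p = 0.00499). Hist1h3g was lowest in CMP, at 0.329 and 0.364 CPM against 1.18 and 2.05 in GMP and 1.52 and 1.47 in MEP. The 3 genes lower in MEP than in CMP became 1 without CMP library 2, and the 6 higher in GMP became 3 without GMP library 1. In MEP against CMP, 9 of 24 S-phase genes and 5 of 10 G2 and mitosis genes were higher, and Slbp rose by 0.98 on the log2 scale. Erythroid markers were higher in MEP than CMP in 7 of 7 cases, and 4 of 8 myeloid markers were higher in GMP than CMP. Megakaryocyte markers, by contrast, were lower in MEP than CMP in 4 of 4 cases, with a summed level of 24.7 against 565 CPM, so that the cells labelled MEP carried erythroid but little megakaryocyte RNA. Myeloid markers summed to 50.1 CPM in MEP against 17748 CPM in CMP. In GMP against CMP, erythroid markers summed to 7.41 against 272 CPM, megakaryocyte markers to 53.3 against 565 and HSC markers to 582 against 1033 CPM. S-phase genes summed to 6129 CPM in GMP against 6858 in CMP, and G2 and mitosis genes to 2798 against 2265 CPM. The part of these lists in the histone values was not tested.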

How the data were processed

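RNA-seq, ATAC-seq and histone mark tables were taken as deposited. The authors trimmed reads (Trim Galore, cutadapt), aligned RNA to mm10 with STAR and a GENCODE M22 index, and deposited raw counts per gene from featureCounts; versions of STAR and featureCounts and the strand and multi-mapping settings were not given in sources used here. ATAC-seq reads were aligned with BWA and deposited as raw counts over consensus regions. Histone mark values are the authors' deposited signal per merged peak and library, scaled to a fixed read number, and the fold change columns of the mark tables, which hold the authors' own comparisons, were not used. Per-library columns with no matching label, 8 in all, were not used.

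The histone genes and gene lists were chosen with earlier results of these data known. Counts were tested with edgeR 4.0.16 (R 4.3.3; TMM scaling, filterByExpr, robust quasi-likelihood fits over all genes, Benjamini-Hochberg adjustment); only the groups compared entered each fit, except that all 12 shRNA libraries shared the fit of cultured against transplanted controls and of the interaction, and all 6 progenitor libraries that of their pairs. The fitting code was tested on simulated data. DESeq2 1.42.0 served as an alternative. ATAC-seq regions needed more than 1.5 CPM in at least 4 libraries. Gene lists covered histone mRNA transcription and processing, histone chaperones, replication-independent variants, S phase, G2 and mitosis, HSC, B cell, plasma cell, T cell, myeloid, erythroid and megakaryocyte markers, and dissociation stress. Named genes were the 8 highest per kilobase in HSCs, up to 5 called genes per direction and comparison, and every tested H1 gene; others were named after their values were seen. Reads per library totalled 20475764 to 24654742 (HSC), 37292602 to 42737054 (shRNA), 33177394 to 36510850 (progenitors) and 15427933 to 26260337 (ATAC-seq regions); intervals cover counting error only. Libraries of a group differed by more than counting noise, so none was treated as 1 library deposited under 2 names; this does not show that they came from separate samples. Equal replicate numbers did not pair the libraries, and the batch label is the same for all progenitors. Alternatives were other scalings, no filter, DESeq2, leaving out each library, a replicate block, single shRNAs and other windows and ratios.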

Additional observations from a re-analysis of the deposited data

Results flagged for a closer look

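Of 72 sets of values (the summed levels, the class sums and the named histone genes in young and in old HSC libraries), 6 held a library that stood apart from its group by Dixon's criterion, which chance alone does in about 1 of 20 sets. Hist4h4 was at 2.39 CPM in old library 7 against 0.550 to 1.19 CPM in the other 7. Hist1h2aj was at 0.381 CPM and Hist1h3g at 0.169 CPM in old library 3, against 0 to 0.180 CPM and 0 to 0.0447 CPM in the others. Hist1h2bh was at 0.122 CPM in old library 6, below the others at 0.350 to 0.541 CPM. Among young libraries, Hist1h3f was at 0.167 CPM in library 1 against 0.276 to 0.293 CPM, and Hist1h2ao was at 0 in library 3 against 0.0415 to 0.0488 CPM, a difference of 1 read that does not set the library apart. The values of Hist1h3g, Hist1h2bh, Hist1h3f and Hist1h2aj in the libraries named rest on 4, 3, 4 and 9 reads, and that of Hist4h4 on 53.

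The response of Hist1h2ae to the shRNAs differed between settings, by -0.89 on the log2 scale (culture minus transplantation; edgeR adjusted p = 0.00761). Hist1h2ae was lower in all 4 cultured shRNA libraries than in both controls, and higher in all 4 transplanted ones.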

How the results depend on the processing

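Few reads per gene set the limit: 48 of the 70 histone genes could not be tested with age, and many calls in the shRNA and progenitor comparisons rest on levels under 1 CPM. Of 224 counts recomputed under other settings 187 stayed within 1.5 times, and of 1438 values of single genes 1323 kept direction and call, 106 lost the call, 6 gained one and 3 changed sign. The causes were not tested.

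With age, the 2 lower genes became 5 with a replicate block (Hist1h1b, Hist1h1c, Hist1h2be, Hist1h4i, Hist4h4), 5 without a fold threshold, 0 with the B cell marker sum as covariate (which can hardly be told apart from age), and 1 to 3 on leaving out single libraries. Hist3h2ba was not called with the block (adjusted p = 0.184). Changes of sign were Hist1h4d with the B cell covariate (-0.19), and, on leaving out single libraries, Hist1h2ae (-0.14 to 0.023, above 0 without old library 4) and Hist1h1d (-0.25 to 0.017, above 0 without young library 2).

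For shRNAs in culture, the 1 higher gene became 2 with DESeq2, 2 with no filter, 0 at an adjusted p, 0 with shRNA1 alone and 2 with shRNA2 alone, and 0 to 2 on leaving out single libraries. The 5 lower became 3 with DESeq2, 3 at an adjusted p, 2 with shRNA1 alone and 3 to 6 on leaving out single libraries. After transplantation, the 1 higher became 0 at an adjusted p, 0 with shRNA2 alone and 0 to 1 on leaving out libraries; the 0 lower became 1 with shRNA2 alone and 0 to 1 on leaving out libraries. Leaving out single libraries gave 10 to 12 genes higher in culture than after transplantation, 1 to 2 lower in MEP than CMP, 3 to 5 higher in GMP than CMP and 3 to 5 lower H3K27ac peaks. DESeq2 gave 1 lower in MEP than CMP and 2 lower in MEP than GMP. A ratio of 1.2 gave 6 lower H3K27ac peaks.

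The replicate block, for libraries that share only a number (correlations of same-numbered deviations from -0.20 to 0.16), gave 1 higher and 4 lower for shRNAs in culture, 1 and 0 after transplantation, 15 and 1 for culture against transplantation, 39 and 3 for progenitors, 8 and 3 for MEP against CMP, 6 and 3 for GMP against CMP and 7 and 4 for MEP against GMP. No paired analysis was made for accessibility, where the groups share no replicate number, or for H3K27ac, where no test of any kind was made.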

Other observations

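In young HSCs 17 of the 70 histone genes had an H3K27me3 domain within 500 bases of their start, in 9 domains with a median signal of 0.425 against 0.389 over all 55820. The same domain covered Hist1h1b, Hist1h3i, Hist1h2an and Hist1h2bp, with signals of 0.592 and 0.648 in the 2 libraries. Among these are Hist1h1b and the pair Hist1h2an and Hist1h2bp, whose H3K27ac peaks were lower in old cells, which was noticed after the values were seen and was not tested.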
